A study of Mus musculus with 9 samples.

Results

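The genes described here are the splicing factors of mouse bone marrow cells on the way from granulocyte-macrophage progenitors to eosinophils. They were taken by symbol, as the genes named Srsf with a number, Hnrnp, Sf3a, Sf3b, Snrp or U2af, and 52 of the 23471 genes in the RNA tables matched. By symbol they fall into 11 SR proteins, 18 hnRNP proteins, 8 subunits of SF3A and SF3B, 8 Sm core proteins, 4 other snRNP proteins and 3 U2AF genes. The mice were Balb/c and untreated, and their bone marrow was pooled. GMP (granulocyte-macrophage progenitors) were sorted as Lin-, CD34+, c-kithi and CD16/32+ cells. Eosinophil progenitors (EoP) were Lin-, CD34+, c-kitlo and CD125+ cells, and eosinophils (Eos) were positive for Siglec-F and CCR3. Each cell type has 2 RNA libraries from separate sorts and 1 chromatin immunoprecipitation library for H3K4me3, a histone mark of active promoters. Whether the sorts used different animals is not stated, and the p-values cover no spread beyond that of these libraries, which may be technical.

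The spliceosome removes introns from pre-mRNA. It is built from small nuclear ribonucleoproteins (snRNPs), each an RNA carrying a ring of Sm core proteins and its own specific proteins. U2AF binds the 3′ end of the intron and brings in the U2 snRNP, whose SF3A and SF3B complexes hold the branch point. SR proteins mostly promote the use of the exons they bind, and hnRNP proteins often oppose it. Many SR and hnRNP genes adjust their own level by splicing their transcripts into forms that are not translated. In blood, SF3B1, SRSF2 and U2AF1 are known as genes mutated in myelodysplastic syndromes.

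The RNA libraries held between 5226653 counts (GMP replicate 2) and 12088134 counts (EoP replicate 2), and the members took 1.11% and 1.20% of them in GMP, 0.860% and 0.913% in EoP and 0.623% and 0.471% in Eos. Levels below are CPM, counts put on a common library size, after TMM scaling, which allows for a few genes taking much of a library. A listed set of 9 eosinophil genes summed to 1203 and 313 CPM in GMP, 233096 and 186396 in EoP and 19418 and 23200 in Eos. The largest part of the EoP sum was Prg2, at 176395 and 137064 CPM in EoP and 4426 and 3321 in Eos. Epx was also lower in Eos, while Ccr3, Il5ra and Siglec5 were higher in both Eos libraries than in both EoP libraries. Ccr3 was at 21.3 and 34.5 CPM in EoP and at 2272 and 2973 in Eos. A set of 6 GMP genes summed to 42197 and 39465 CPM in GMP, 2582 and 3184 in EoP, and 14752 and 4968 in Eos. Its members differed: Mpo was at 1922 and 2376 CPM in EoP and at 10533 and 3780 in Eos, and Elane was also higher in Eos. Kit was at 200 and 237 CPM in EoP and at 111 and 39.1 in Eos, and Cd34 was also lower in Eos. A set of 12 neutrophil genes summed to 2340 and 865 CPM in GMP, 648 and 290 in EoP, and 42239 and 48397 in Eos, and none of the 12 was at 0 in any library. A set of 10 genes induced by handling summed to 476 and 2478 CPM in GMP, 4526 and 36.3 in EoP, and 563 and 2884 in Eos. What part these sets have in the results below was not tested. In such bulk libraries, a lower value from fewer cells of a type and one from less RNA per cell cannot be told apart.

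Compared between genes per length, by the authors' RPKM (reads per kilobase of transcript, scaled to library size), the levels of the members spanned a wide range. Srsf2, an SR protein that binds exonic enhancers, had the highest mean, 131 RPKM, with 156 and 138 in GMP, 165 and 198 in EoP and 78.0 and 52.9 in Eos. Hnrnpa2b1, an RNA-binding protein of the A/B group, followed with a mean of 119 RPKM, and values of 125 and 111 in GMP, 182 and 166 in EoP and 85.8 and 46.9 in Eos. Srsf2 lay above Hnrnpa2b1 in both GMP libraries, and the values of the 2 genes overlapped in EoP and in Eos. Hnrnpab, Hnrnpu and Hnrnph1 came next with means of 66.0, 64.8 and 64.3 RPKM, an order that also changed between libraries. Hnrnpab moved down among the members, from rank 3 in both GMP libraries to ranks 6 and 11 in the Eos libraries, while Hnrnpu stayed between ranks 4 and 6 in all 6. The median member was at 15.7 and 16.6 RPKM in GMP, 19.1 and 20 in EoP, and 11.0 and 7.32 in Eos.

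At the low end, Snrpn, the imprinted Sm protein gene known from neurons, had 1 count in each GMP library and 0 elsewhere. Srsf12, an SR-related gene, had 4 and 1 counts in GMP, 0 and 0 in EoP, and 1 and 0 in Eos. Both failed the expression filter, so 50 of the 52 members were tested. Hnrnpa1, one of the classical hnRNP proteins, was listed at a mean of only 0.54 RPKM, below every other member tested. Its locus overlaps 2 gene models of the same strand, Gm10052 and Gm5643, and Hnrnpa3 overlaps Gm6793. How reads shared with such copies were counted was not given in the sources used here, so the values of Hnrnpa1 and Hnrnpa3 are uncertain. Hnrnpab, Hnrnph3, Hnrnpk, Snrpa, Snrpf and Srsf4 overlap genes of the opposite strand, whose reads cannot be told apart from theirs if the counting ignored strand.

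**Figure D1:**
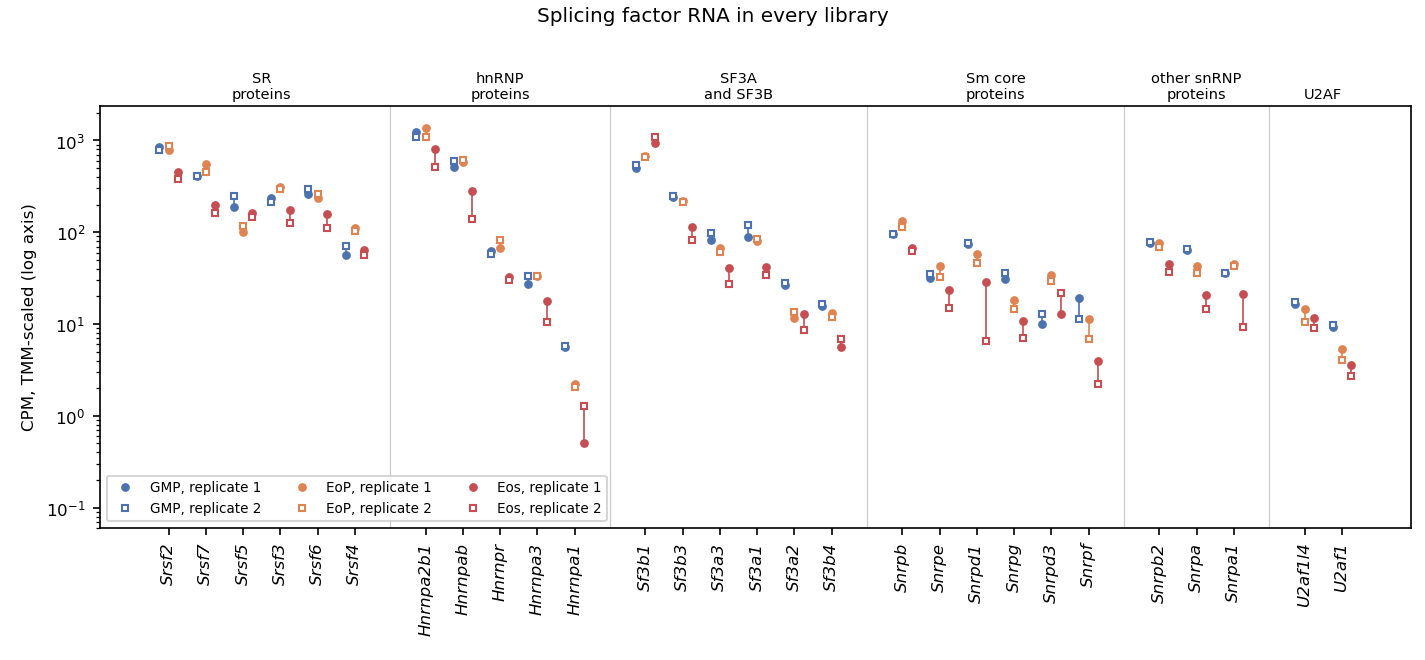
RNA of the 28 members named by rule, in CPM on a log axis, with 1 point per library (filled circle, replicate 1; open square, replicate 2), a line joining the 2 libraries of a cell type, and members grouped by class. Most members sit lower in both Eos libraries (red) than in both EoP libraries (orange), while Sf3b1 sits highest in Eos.

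From GMP to EoP few splicing factors were called as changed. Of the 50 tested, 2 rose, which is 4% against 9.49% of all genes tested, and 3 fell, which is 6% against 17.1%. The test was edgeR's quasi-likelihood test, with p-values adjusted by Benjamini-Hochberg over all 14324 genes tested and a call at an adjusted p under 0.05. The median log2 fold change of the members was 0.01, beside -0.07 over all genes. Both EoP libraries lay above both GMP libraries in 13 members and below them in 19. The matching share of all genes is not given for this step. A member without a call is not thereby shown to be unchanged. None of the 18 hnRNP genes was called by edgeR or by DESeq2's Wald test, 1 had an unadjusted p under 0.05, and 17 of them lay between a log2 fold change of -0.31 and 0.31. The exception by size was Hnrnpa1, at 5.69 and 5.81 CPM in GMP and 2.24 and 2.06 in EoP (log2 fold change -1.42, SE 0.594, edgeR adjusted p = 0.107).

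The 2 genes that rose were Snrpd3 and Srsf4. Snrpd3, 1 of the proteins of the Sm ring, was at 10 and 13 CPM in GMP and at 34.7 and 29.3 in EoP. The libraries of the 2 cell types did not overlap, and the log2 fold change was 1.48 (SE 0.326, edgeR adjusted p = 0.0110). Srsf4, an SR protein with a long tail rich in arginine and serine, was at 56.4 and 71.4 CPM in GMP and at 110 and 103 in EoP (log2 fold change 0.74, SE 0.219, edgeR adjusted p = 0.0325). Its EoP libraries both lay above both GMP libraries.

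The 3 genes that fell come from 3 classes. Srsf5, an SR protein, was at 191 and 248 CPM in GMP and at 102 and 119 in EoP (log2 fold change -1.0, SE 0.225, edgeR adjusted p = 0.0119). Sf3a2, a subunit of the SF3A complex of the U2 snRNP, was at 26.6 and 28.2 CPM in GMP and at 11.7 and 13.5 in EoP (log2 fold change -1.12, SE 0.307, edgeR adjusted p = 0.0236). Snrpg, the smallest Sm protein, was at 31.3 and 35.8 CPM in GMP and at 18.4 and 14.7 in EoP (log2 fold change -1.02, SE 0.302, edgeR adjusted p = 0.0317). In each of the 3 the groups were separate, as they were, in this direction, in 19 of the 50 members tested. The Sm core thus held a gene that rose and a gene that fell, although their proteins sit in 1 ring.

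These 5 calls rested on having both libraries of both cell types. Without GMP replicate 1 or without EoP replicate 1, all 5 calls were lost, with edgeR adjusted p-values of 0.0529 to 0.265 and of 0.0713 to 0.154. Without GMP replicate 2 or EoP replicate 2, all but that of Snrpd3 were lost, with edgeR adjusted p-values of 0.0704 to 0.246 and of 0.0674 to 0.276. With scaling by library size alone 1 member rose and 9 fell, where 4.2% of all genes rose and 25.3% fell.

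From EoP to Eos, 25 of the 50 splicing factors fell and 0 rose. That is 50% lower against 17.7% of all genes tested, and 0% higher against 19.1%. The median log2 fold change of the members was -0.81, beside 0.02 over all genes, and 46 of the 50 had a negative value. Both Eos libraries lay below both EoP libraries in 40 members, against 35.5% of all genes, and above them in 3, against 35.4%. Among genes with at least 50 counts in 2 libraries, refitted alone, 26 members fell and 1 rose, where 23.1% of all such genes fell and 25% rose. Hnrnpa1 and Snrpc do not reach that minimum, so the members in that fit are fewer than 50. One caution attaches to the count of 0 higher in edgeR: 1 member was higher at an unadjusted p under 0.05, and DESeq2's Wald test called 2 higher, Sf3b1 and Srsf5. Summed over the 52 members, RNA was at 8857 and 9331 CPM in GMP, 9766 and 9459 CPM in EoP and at 6841 and 5937 in Eos.

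**Figure D2:**
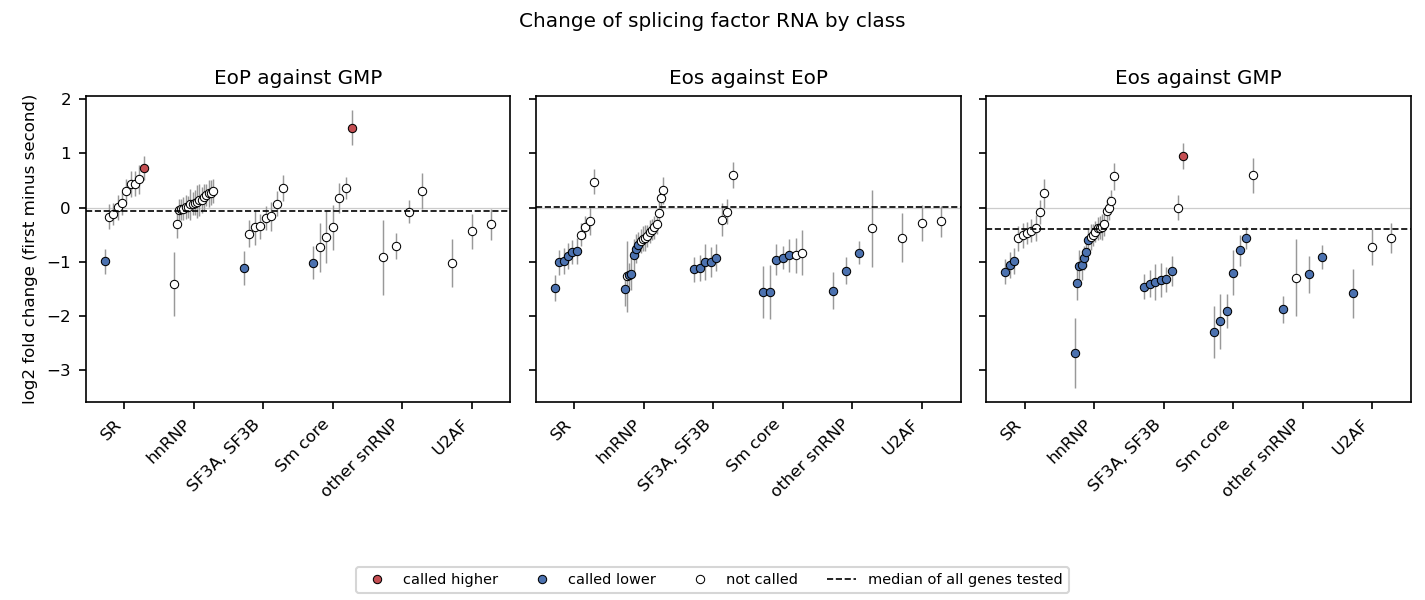
Log2 fold change of each of the 50 tested members in the 3 comparisons, by class, with the standard error of the fit as a grey bar, calls in colour (red higher, blue lower, white not called) and the median of all 14324 genes as a dashed line. In the middle panel 46 of 50 points lie below 0 and no point is red.

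The fall from EoP to Eos was called in 5 of 7 Sm core genes, 3 of 4 other snRNP genes, 5 of 8 SF3A and SF3B genes, 6 of 10 SR genes, 6 of 18 hnRNP genes and 0 of 3 U2AF genes, of which 0 also had an unadjusted p under 0.05 in edgeR or a call in DESeq2's Wald test. Class medians of the log2 fold change ran from -1.0 in the other snRNP genes and -0.97 in SF3A and SF3B to -0.57 in the hnRNP genes and -0.28 in U2AF. Whether the classes differ from each other was not tested.

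Among the SR genes, Srsf7, which binds exonic enhancers and also takes part in mRNA export, had the largest fall. It was at 554 and 459 CPM in EoP and at 198 and 163 in Eos (log2 fold change -1.49, SE 0.233, edgeR adjusted p = 0.00122). In GMP it had been at 409 and 410 CPM, so both Eos libraries lay below all 4 progenitor libraries. Srsf3, the smallest SR protein, was at 312 and 295 CPM in EoP and at 176 and 126 in Eos (log2 fold change -1.01, SE 0.233, edgeR adjusted p = 0.00817). Srsf2 was at 784 and 862 CPM in EoP and at 457 and 377 in Eos (log2 fold change -0.98, SE 0.241, edgeR adjusted p = 0.0108). Both genes had separate groups. Srsf6 went from 238 and 263 CPM to 157 and 111, and Srsf1 also fell (log2 fold changes -0.90 and -0.81, edgeR adjusted p = 0.0147 and 0.0237). Srsf4 was the only member called in opposite directions at the 2 steps: from 110 and 103 CPM in EoP it fell to 64.1 and 56.6 in Eos (log2 fold change -0.82, SE 0.219, edgeR adjusted p = 0.0160), close to its 56.4 and 71.4 CPM in GMP. Srsf5, lower in EoP, was at 161 and 146 CPM in Eos, above both EoP libraries, but without a call (log2 fold change 0.48, SE 0.224, edgeR adjusted p = 0.116). Without EoP replicate 1 the calls of Srsf1, Srsf2, Srsf3, Srsf4 and Srsf6 were lost (edgeR adjusted p-values of 0.0531 to 0.0983), and without EoP replicate 2 those of Srsf1, Srsf2, Srsf4 and Srsf6 (0.0738 to 0.159). Srsf1 also lost its call without GMP replicate 2 or Eos replicate 2 (edgeR adjusted p = 0.0519 and 0.0637).

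Among the hnRNP genes, Hnrnpab, a close relative of the AU-rich element binding protein encoded by Hnrnpd, was at 590 and 607 CPM in EoP and at 280 and 141 in Eos (log2 fold change -1.51, SE 0.318, edgeR adjusted p = 0.00525). The 2 Eos libraries differed from each other, yet both lay far below the 4 progenitor libraries. Hnrnpr, an hnRNP with roles in mRNA transport, was at 67.9 and 81.4 CPM in EoP and at 32.7 and 30.4 in Eos (log2 fold change -1.24, SE 0.218, edgeR adjusted p = 0.00210). Hnrnpa3 was at 33.6 and 33.3 CPM in EoP and at 17.9 and 10.6 in Eos (log2 fold change -1.23, SE 0.297, edgeR adjusted p = 0.0101). Hnrnpa2b1, the most abundant of the class per length, was at 1352 and 1081 CPM in EoP and at 807 and 521 in Eos (log2 fold change -0.87, SE 0.292, edgeR adjusted p = 0.0397). In each of these 4 genes the EoP and Eos libraries did not overlap. Hnrnpa0 and Hnrnph1 also fell, with log2 fold changes of -0.76 and -0.68 (edgeR adjusted p = 0.0441 and 0.0462). The other 12 were not called. Hnrnpul2 was at 251 and 243 CPM in EoP and at 267 and 288 in Eos, and Hnrnph3 at 75.5 and 64.4 and then 104 and 69.5. Those 2 were the hnRNP genes with a positive log2 fold change. The call of Hnrnpa3 was lost without either EoP replicate (edgeR adjusted p = 0.0526 and 0.0523). Those of Hnrnpa0, Hnrnpa2b1 and Hnrnph1 were lost without any 1 library other than Eos replicate 1, with edgeR adjusted p-values of up to 0.293.

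In the U2 snRNP, SF3A and SF3B did not move as a unit. Sf3b3, a scaffold of SF3B, was at 218 and 212 CPM in EoP and at 114 and 81.6 in Eos (log2 fold change -1.14, SE 0.229, edgeR adjusted p = 0.00420). Sf3a1, the largest subunit of SF3A, was at 80.8 and 85.0 CPM in EoP and at 42.0 and 34.6 in Eos (log2 fold change -1.11, SE 0.235, edgeR adjusted p = 0.00526). Sf3b4, an RNA-binding subunit, was at 13.2 and 12.1 CPM in EoP and at 5.62 and 6.90 in Eos (log2 fold change -1.01, SE 0.332, edgeR adjusted p = 0.0369). Sf3b5 and Sf3a3 fell as well (log2 fold changes -1.01 and -0.93). In contrast, Sf3b1, the large subunit that encloses the branch point, was at 684 and 653 CPM in EoP and at 928 and 1095 in Eos. Its Eos libraries lay above its EoP libraries, but the step was not called (log2 fold change 0.60, SE 0.238, edgeR adjusted p = 0.0736). Sf3b2, the partner of Sf3b4, was at 156 and 165 CPM in EoP and at 139 and 165 in Eos. The call of Sf3a3 was lost without either EoP replicate (edgeR adjusted p = 0.0948 and 0.0574 without replicates 1 and 2). Sf3b5 lost its call without EoP replicate 1 or Eos replicate 2 (edgeR adjusted p = 0.132 and 0.0518). Sf3b4 lost its call without any 1 library other than Eos replicate 2, with edgeR adjusted p-values of up to 0.152.

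Of the Sm core genes, Snrpd1 and Snrpf had the largest log2 falls at this step, both -1.56 (SE 0.501 and 0.479, edgeR adjusted p = 0.0340 and 0.0282). Snrpd1 was at 58.3 and 46.1 CPM in EoP and at 28.6 and 6.55 in Eos, 2 Eos libraries that lay far apart. Snrpf was at 11.4 and 6.94 CPM in EoP and at 3.92 and 2.22 in Eos. Snrpb, the highest of the class per length, was at 133 and 113 CPM in EoP and at 67.7 and 62.1 in Eos (log2 fold change -0.93, SE 0.207, edgeR adjusted p = 0.00696). Snrpe went from 43.2 and 32.4 CPM in EoP to 23.6 and 15.1 in Eos, and Snrpg, already lower in EoP, from 18.4 and 14.7 to 10.8 and 7.02 (log2 fold changes -0.96 and -0.88, edgeR adjusted p = 0.0242 and 0.0471). Snrpg was thus the only member called lower at both steps. In all 7 tested Sm genes both Eos libraries lay below both EoP libraries, Snrpd3 among them at 13 and 21.7 CPM in Eos (log2 fold change -0.88, edgeR adjusted p = 0.0513). The calls of the Sm genes leaned on single libraries. Without EoP replicate 1 all 5 were lost (edgeR adjusted p-values of 0.0713 to 0.237), and without Eos replicate 2 those of Snrpe, Snrpf and Snrpg (0.0723 to 0.155). Without EoP replicate 2 or without either GMP replicate those of Snrpd1 and Snrpg were lost, with edgeR adjusted p-values of up to 0.101.

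Of the proteins specific to the U1 and U2 snRNPs, 3 of 4 fell at this step. Snrpa1, the U2 A′ protein, was at 45.6 and 43.5 CPM in EoP and at 21.2 and 9.35 in Eos (log2 fold change -1.54, SE 0.342, edgeR adjusted p = 0.00675). Snrpa, the A protein of the U1 snRNP, was at 43.3 and 36.1 CPM in EoP and at 20.5 and 14.7 in Eos (log2 fold change -1.17, SE 0.247, edgeR adjusted p = 0.00533). Snrpb2, the U2 B″ protein that pairs with the product of Snrpa1, was at 76.4 and 69.5 CPM in EoP and at 45.1 and 36.8 in Eos (log2 fold change -0.83, SE 0.216, edgeR adjusted p = 0.0137). None of the 3 overlapped between EoP and Eos. Snrpc, the C protein of the U1 snRNP, was at 1.77 and 2.31 CPM in EoP and at 2.41 and 0.702 in Eos, with a standard error of 0.711 on its log2 fold change of -0.38, too wide to show a change of the size of the other 3. Without EoP replicate 1 the calls of Snrpa and Snrpb2 were lost (edgeR adjusted p-values of 0.0505 to 0.0984), and without EoP replicate 2 that of Snrpb2 (0.0631).

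Fewer falls from EoP to Eos were called without either EoP replicate or without Eos replicate 2, among the members and among all genes. More were called in both without Eos replicate 1. The members' median log2 fold change was -0.74 and -0.81 without EoP replicates 1 and 2 in turn. It was -0.91 and -0.58 without Eos replicates 1 and 2. Over all genes the medians were 0.07, 0.10, 0 and 0 in the same order. The calls of 6 members held in every fit that left out 1 library: Hnrnpab, Hnrnpr, Sf3a1, Sf3b3, Snrpa1 and Srsf7. Of these, Hnrnpab, Sf3a1, Sf3b3 and Snrpa1 also held in every other fit. The 2 Eos libraries stood apart from each other: 39 of 50 members were lower in replicate 2 than in replicate 1, by a median of -0.31 on the log2 scale, where 52.0% of all genes were lower and the median was -0.03. Beside this, the GMP gene set was at 14752 CPM in Eos replicate 1 and 4968 in replicate 2, and the neutrophil set at 42239 and 48397. Their part in the fall was not tested.

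Across both steps, Eos against GMP, 26 of 50 members were lower and 1 was higher. That is 52% lower against 31.8% of all genes tested, and 2% higher against 22.7%. This comparison shares its libraries with the other 2, so its values are given beside theirs and not as separate support. The median log2 fold change was -0.76 for the members and -0.39 over all genes. By class, 6 of 7 Sm core genes, 6 of 8 SF3A and SF3B genes, 3 of 4 other snRNP genes, 7 of 18 hnRNP genes, 3 of 10 SR genes and 1 of 3 U2AF genes were lower.

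Sm core genes and genes of the U1 and U2 snRNPs were among those with the largest falls. Snrpf was at 19.1 and 11.3 CPM in GMP and at 3.92 and 2.22 in Eos (log2 fold change -2.30, SE 0.483, edgeR adjusted p = 0.00377). Snrpd1 was at 74.4 and 77.2 CPM in GMP and at 28.6 and 6.55 in Eos (log2 fold change -2.10, SE 0.507, edgeR adjusted p = 0.00721). Snrpg had a log2 fold change of -1.90 (SE 0.313, edgeR adjusted p = 0.00104). In all 3 the Eos libraries lay below both GMP libraries. That was so in 42 of the 50 members tested, and the reverse in 2. Snrpa was at 64.9 and 65.1 CPM in GMP and at 20.5 and 14.7 in Eos, a log2 fold change of -1.88 (SE 0.251, edgeR adjusted p = 0.000301). Sf3a1 was at 89.4 and 121 CPM in GMP and at 42.0 and 34.6 in Eos (log2 fold change -1.46, SE 0.237, edgeR adjusted p = 0.000982). Sf3a3, the SF3A subunit next to it, was at 82.8 and 97.6 CPM in GMP and at 40.4 and 27.4 in Eos (log2 fold change -1.41, SE 0.250, edgeR adjusted p = 0.00159). Sf3a2 stayed near its EoP level, at 13 and 8.65 CPM in Eos (log2 fold change against GMP -1.34, edgeR adjusted p = 0.00597). All 3 subunits of SF3A were thus called lower in Eos than in GMP, though the call of Sf3a2 was lost without GMP replicate 2.

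Hnrnpa1 had the largest log2 value among the members, -2.69 (SE 0.648, edgeR adjusted p = 0.00716), at 5.69 and 5.81 CPM in GMP and 0.502 and 1.29 in Eos. Its values carry the doubt about copies given above, and its call, like that of Hnrnpa3, was lost without GMP replicate 2. Hnrnpab was at 514 and 595 CPM in GMP and 280 and 141 in Eos (log2 fold change -1.40, edgeR adjusted p = 0.00546), and Hnrnpa3 at 27.0 and 33.8 and then 17.9 and 10.6 (log2 fold change -1.09, edgeR adjusted p = 0.0126). Hnrnpr, at 62.2 and 58.7 CPM in GMP, had a log2 fold change of -0.94 (edgeR adjusted p = 0.00599). When each gene was represented by its transcript with the most counts, the sign of Hnrnpr turned (log2 fold change 0.35, edgeR adjusted p = 0.386). Srsf7 (-1.18, edgeR adjusted p = 0.00265), Srsf6 (-1.07, edgeR adjusted p = 0.00498) and Srsf2 (-0.98, edgeR adjusted p = 0.00786) were the SR genes called. U2af1, the subunit of U2AF that reads the AG at the end of the intron, was at 9.32 and 9.68 CPM in GMP, 5.31 and 4.03 in EoP and 3.62 and 2.69 in Eos (log2 fold change Eos against GMP -1.58, SE 0.453, edgeR adjusted p = 0.0149). U2af1l4, its paralogue and the highest of its class per length, was at 16.6 and 17.4 CPM in GMP, 14.5 and 10.6 in EoP and 11.5 and 9.0 in Eos, without a call in any comparison. Both U2AF genes had GMP libraries above all Eos libraries, as did most members tested.

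Sf3b1 was the 1 member called higher in Eos than in GMP. It was at 499 and 543 CPM in GMP, 684 and 653 in EoP and 928 and 1095 in Eos (log2 fold change 0.96, SE 0.240, edgeR adjusted p = 0.00842). The 3 cell types did not overlap, and their order was GMP, EoP, Eos. Without GMP replicate 1 the call was lost (edgeR adjusted p = 0.0715), and with scaling by library size alone no member was called higher and 43 were called lower, where 14.1% of all genes were called higher and 47.3% lower. Without either GMP replicate fewer falls from GMP to Eos were called, among the members and among all genes. The median log2 fold change without GMP replicate 2 was -0.55 for the members and -0.19 over all genes. Without GMP replicate 1 the medians were -0.75 and -0.32. Without GMP replicate 2, the calls of 18 members were lost (edgeR adjusted p-values of 0.0542 to 0.330), those of Hnrnpab, Hnrnpr, Srsf2, Srsf6 and U2af1 among them. Without GMP replicate 1 those of 9 were lost (0.0557 to 0.162), and without Eos replicate 2 those of 6 (0.0592 to 0.149), U2af1 among them in both. Members called lower in every fit that left out 1 library were Sf3a1, Sf3a3, Sf3b3, Snrpa, Snrpd1, Snrpf, Snrpg and Srsf7.

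The tables list more than 1 transcript for 21 of the 52 members, and 19 of these had at least 20 counts in every library. The files divide a gene's reads among its transcripts by an estimate whose method was not given in the sources used here, so the shares below are descriptions without a test. Srsf3 has a coding transcript and 1 that RefSeq lists as non-coding. The non-coding one took 62.1% and 93.7% of the gene's RPKM in GMP, 73.2% and 55.6% in EoP, and 100% in both Eos libraries, where the coding one is listed at 0. Both Eos values lay above all 4 progenitor values. The non-coding transcript of Srsf7 took 42.0% and 51.1% in GMP, 37.4% and 34.3% in EoP and 32.7% and 80.9% in Eos, and its Eos libraries lay on either side of the rest. That of Srsf9 took 17.4% and 0% in GMP, 0% and 19.6% in EoP and 5.43% and 9.07% in Eos. Srsf1, one of the classical SR proteins, has 2 coding transcripts. Its second coding transcript took 18.4% and 24.2% in GMP, 43.2% and 59.2% in EoP and 61.4% and 44.8% in Eos. That of Hnrnpa2b1 took 28.2% and 31.1% in GMP, 45.6% and 50.3% in EoP, and 42.1% and 46.0% in Eos. In both genes the GMP libraries were below the other 4. Hnrnpr shows how loose such shares can be, since its 4 transcripts come in pairs with nearly equal values in every library, such as 16.4% and 16.4% in GMP replicate 1. In Hnrnpa3, 1 transcript took 100% in replicate 1 of GMP and of Eos, and another took 100% in replicate 2 of both. A share of 100% can thus change between libraries of 1 cell type.

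**Figure D3:**
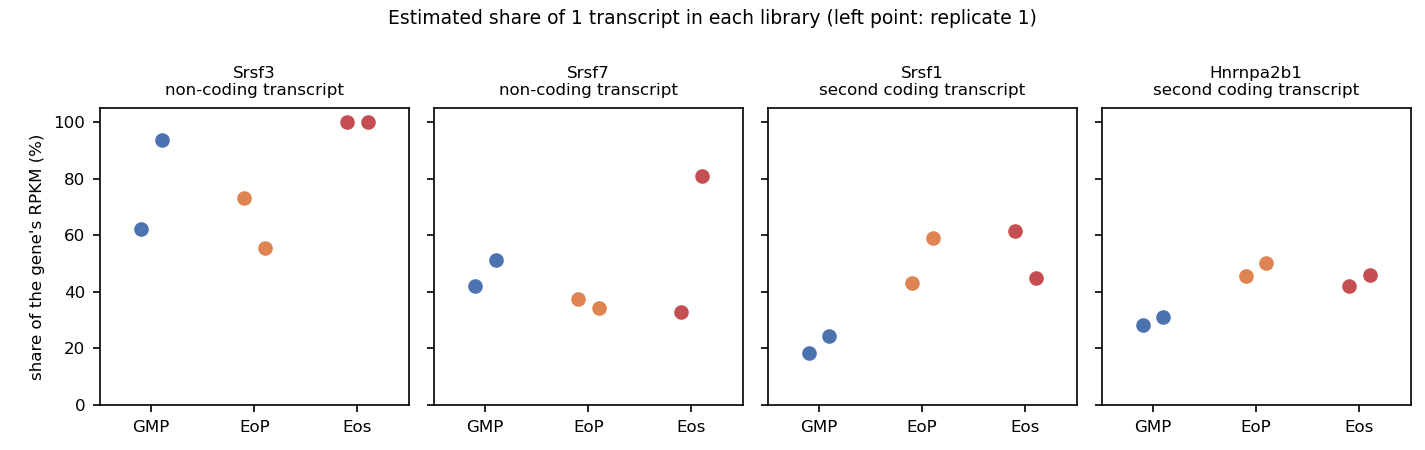
Share of the gene's RPKM, in percent, on 1 transcript of Srsf3, Srsf7, Srsf1 and Hnrnpa2b1 in each of the 6 RNA libraries (left point of each pair, replicate 1). The non-coding transcript of Srsf3 reaches 100% in both Eos libraries, and the second coding transcripts of Srsf1 and Hnrnpa2b1 are lowest in the GMP libraries.

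H3K4me3 marked the promoters of nearly all members in every cell type. The authors' peak lists held a promoter peak for 51 of 52 members in GMP, 50 in EoP and 50 in Eos. Among the genes tested for RNA, 81.4%, 74.1% and 76.2% had one. All 50 members tested for RNA had a promoter peak in each list. Snrpn had none in any list. Srsf12 had one in the GMP list alone, of 444 bases and a fold enrichment of 7.89, in the cell type where it had 4 and 1 counts. All 25 members that fell from EoP to Eos kept a listed promoter peak in Eos, as did 93.8% of all genes that fell. With 1 ChIP library per cell type there is no replicate check, the read depth behind the lists is unknown, and values were used only within a list.

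Within each list, the heights and lengths of the members' promoter peaks were ranked among all peaks, with no test. The median member stood at percentile 69.8 of fold enrichment in GMP, 62.8 in EoP and 79.5 in Eos, and the median gene tested for RNA stood at 72, 69.3 and 81.4. By the length of the longest promoter peak the members stood at percentiles 86.2, 81.5 and 88.4, and the genes tested at 81.7, 74.8 and 84.1. More than 1 promoter peak was listed for 41 of 51 members in GMP, 36 of 50 in EoP and 37 of 50 in Eos, and for 54.3%, 47.0% and 43.6% of the genes tested for RNA that had a peak. By fold enrichment, the highest peaks belonged to Sf3a3 (16.5), Snrpc (13.3) and Snrpb2 (12.5) in GMP. In EoP they belonged to Snrpe (12.2), Sf3b4 (11.7) and Snrpa (11.0), and in Eos to Sf3b4 (17.4), Srsf5 (14.0) and Sf3b5 (13.4). The longest were those of Srsf3 (1911 bases), Snrpa1 (1597) and Hnrnpa3 (1496) in GMP, of Hnrnpul2 (1361), Snrpa1 (1267) and Srsf7 (1226) in EoP, and of Hnrnpk (1250), Hnrnpab (1201) and Hnrnpul2 (1125) in Eos. The summit of the highest peak lay after the start site in 40 of 51 members in GMP and in 33 of 50 in EoP and in Eos. Over all members with a peak, summits before the start included, the median position was 147, 139.5 and 131.5 bases after the start. In each list the same 18 members had a promoter peak that the authors' table assigned to another gene as well. That is 35.3%, 36% and 36% of the members with a peak, beside 21.6%, 22.7% and 22.3% of such genes tested for RNA.

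**Figure D4:**
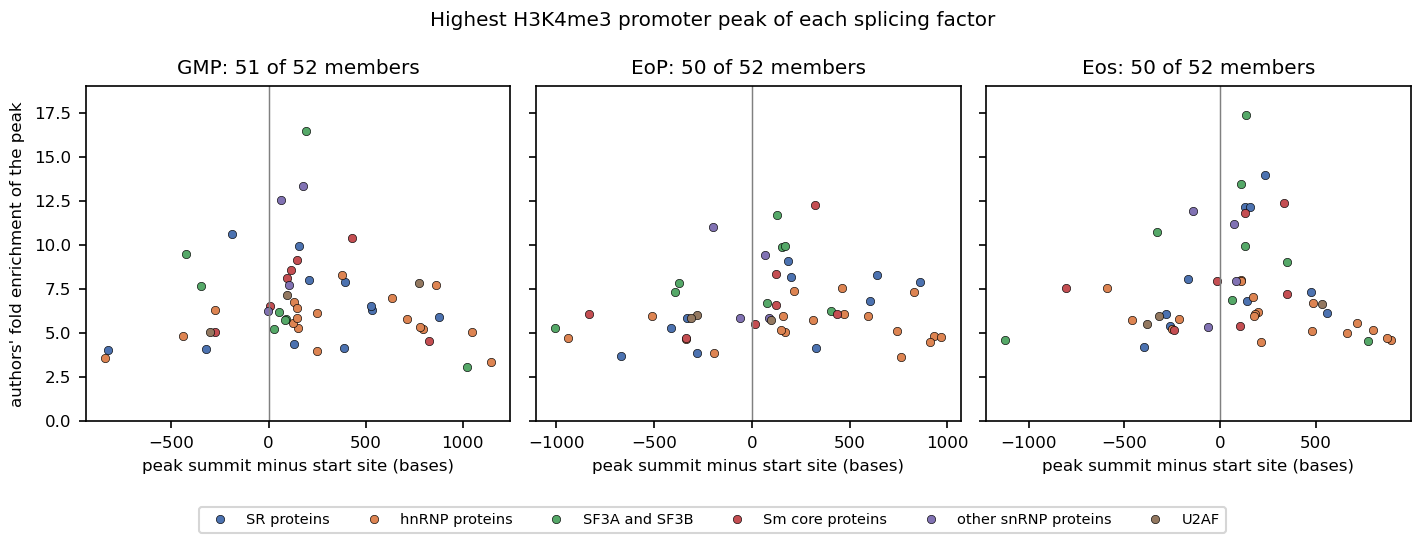
Highest H3K4me3 promoter peak of each member in the 3 peak lists: the authors' fold enrichment against the distance of the summit from the start site in bases, coloured by class, with positive distances after the start. In each list most summits lie after the start, and the highest peaks belong to Sf3a3 in GMP (16.5), Snrpe in EoP (12.2) and Sf3b4 in Eos (17.4).

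Promoter sequences were taken from RefSeq windows of GRCm38.p6, the assembly of build mm10, that run from 250 bases before to 50 bases after an annotated start, and 64 such windows matched 46 of the 52 members. The 6 without a window were Hnrnpul2, Sf3b4, Sf3b5, Snrpb, Snrpd1 and U2af2. The 250 bases before the start are shown for 4 members: Sf3a3 and Snrpb2, with peaks among the 3 highest in GMP, Srsf7, with the largest fall of the SR genes, and Sf3b1, the 1 member higher in Eos than in GMP. Capitals mark matches to a GC box (GGGCGG or CCGCCC) and to the core of an ETS site (CCGGAAG or CTTCCGG).
Sf3a3 (chr4:124714611-124714860, plus strand): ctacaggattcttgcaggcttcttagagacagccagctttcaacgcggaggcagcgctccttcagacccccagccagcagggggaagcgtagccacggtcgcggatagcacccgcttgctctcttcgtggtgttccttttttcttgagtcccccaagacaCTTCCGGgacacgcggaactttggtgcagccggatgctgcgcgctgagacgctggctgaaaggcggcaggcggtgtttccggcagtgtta
Snrpb2 (chr2:143062819-143063068, plus strand): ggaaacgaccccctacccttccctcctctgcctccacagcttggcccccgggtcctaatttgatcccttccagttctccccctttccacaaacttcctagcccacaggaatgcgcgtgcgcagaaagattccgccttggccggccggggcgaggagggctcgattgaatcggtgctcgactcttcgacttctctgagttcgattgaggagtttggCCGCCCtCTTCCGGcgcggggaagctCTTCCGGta
Srsf7 (chr17:80207306-80207555, minus strand): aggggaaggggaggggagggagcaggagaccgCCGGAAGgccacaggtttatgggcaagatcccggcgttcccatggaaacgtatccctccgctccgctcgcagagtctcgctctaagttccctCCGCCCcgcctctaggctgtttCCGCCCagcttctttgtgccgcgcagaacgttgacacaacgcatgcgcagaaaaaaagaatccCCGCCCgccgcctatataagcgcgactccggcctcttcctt
Sf3b1 (chr1:55027479-55027728, minus strand): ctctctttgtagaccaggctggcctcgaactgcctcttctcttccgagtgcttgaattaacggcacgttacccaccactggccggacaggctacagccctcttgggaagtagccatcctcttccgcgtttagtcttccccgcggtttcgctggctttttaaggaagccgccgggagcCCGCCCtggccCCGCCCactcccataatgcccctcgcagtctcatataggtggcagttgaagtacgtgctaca
All 4 stretches lie upstream of the annotated start. The ETS core of Sf3a3 begins 90 bases before the start, and those of Snrpb2 begin 28 and 9 bases before it. Srsf7 holds an ETS core 218 bases before the start and GC boxes at 126, 104 and 41 bases. Sf3b1 holds GC boxes at 73 and 62 bases before the start and no ETS core in this stretch. Listed H3K4me3 peaks covered 142, 65 and 235 of the 250 bases of Snrpb2 in GMP, EoP and Eos, and 66, 46 and 37 of those of Sf3a3. They covered 11, 12 and 87 bases of Srsf7 and 0 of Sf3b1 in all 3 lists, where the peaks lay farther from the printed stretch, on the side of the gene.

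Over the 64 windows of 300 bases, read on both strands and with overlapping matches allowed, the ETS core was in 31.2%, beside 8.86% of all 32851 RefSeq windows and 15.7% of the 13378 windows of genes tested for RNA. At least 1 window held it in 15 of the 46 members. The GC box was in 67.2% of the members' windows, beside 35.7% of all and 58.3% of those of genes tested. The CCAAT box (CCAAT) was in 46.9%, beside 37.4% and 37.7%, and the TATA box (TATAAA) in 10.9%, beside 13.6% and 7.82%. A site for YY1 (AAGATGGC) was in 3.12%, beside 2.75% and 4.04%. The median window of a member held 25.5 CpG pairs, that of a gene tested 19 and that of all genes 7. Windows of 1 gene can overlap, so these shares are descriptions, and a match is not a bound site.

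The other genes of splicing were taken from lists of known components and regulators, which hold no member. Of 68 further spliceosome components tested, EoP had 3 called higher than GMP and 0 called lower, and Eos had 4 higher and 16 lower than EoP. These are 4.41% higher and 0% lower at the first step, against 9.49% and 17.1% of all genes tested. At the second they are 5.88% higher and 23.5% lower, against 19.1% and 17.7%. For the lower direction in EoP, 0 also had an unadjusted p under 0.05 in edgeR, and DESeq2's Wald test called 0, in this list and in the next 2 lists. Their median log2 fold change at the second step was -0.29, beside 0.02 over all genes. Ppil1, a spliceosomal prolyl isomerase, was at 23.8 and 23.6 CPM in EoP and at 7.03 and 4.91 in Eos (log2 fold change -1.98, SE 0.320, edgeR adjusted p = 0.00141). Lsm2, a protein of the Sm-like ring on U6, was at 69.0 and 59.5 CPM in EoP and at 27.5 and 12.5 in Eos (log2 fold change -1.68, SE 0.351, edgeR adjusted p = 0.00507). Slu7, a factor of the second catalytic step, rose from 57.2 and 46.8 CPM to 93.9 and 102 (log2 fold change 0.92, SE 0.222, edgeR adjusted p = 0.0101). Ccdc12 also rose at this step (log2 fold change 1.00, edgeR adjusted p = 0.0153), and Snrnp40 and Rnf113a2 rose from GMP to EoP (log2 fold changes 0.84 and 0.83, edgeR adjusted p = 0.0366 and 0.0427). Without EoP replicate 2 the calls of Slu7 and Ccdc12 were lost (edgeR adjusted p = 0.0983 and 0.134). Those of Snrnp40 and Rnf113a2 were lost without either GMP replicate or EoP replicate 1, and that of Snrnp40 also without EoP replicate 2 (edgeR adjusted p-values of up to 0.286).

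Of 12 genes of the minor spliceosome, which removes a small class of introns, 2 were called higher and 0 lower at the first step, and 2 higher and 1 lower at the second. Those are 16.7% higher at either step and 8.33% lower at the second. Of all genes tested, 9.49% were higher and 17.1% lower at the first step, and 19.1% higher and 17.7% lower at the second. Zrsr1, a relative of U2af1, was at 9.08 and 13.9 CPM in GMP, 27.7 and 28.4 in EoP and 30.5 and 42.8 in Eos, and was called higher at the first step (log2 fold change 1.30, SE 0.299, edgeR adjusted p = 0.0128). Armc7 rose at both steps, from 6.90 and 5.66 CPM in GMP to 13.8 and 12.2 in EoP and 59.2 and 102 in Eos (log2 fold changes 1.04 and 2.63, edgeR adjusted p = 0.0355 and 0.000245). Rnpc3, a protein of the U11 and U12 snRNPs, rose at the second step (log2 fold change 0.80, edgeR adjusted p = 0.0330), and Snrnp25, a protein of the U11 snRNP, fell (log2 fold change -1.26, edgeR adjusted p = 0.0176). The second rise of Armc7 held without any 1 library. The call of Zrsr1 was lost without GMP replicate 1 or EoP replicate 1, the first rise of Armc7 without any 1 of the GMP and EoP libraries, and the call of Snrnp25 without EoP replicate 1 or Eos replicate 2 (edgeR adjusted p-values of up to 0.128, 0.143 and 0.133). That of Rnpc3 was lost without any 1 library other than Eos replicate 1 (up to 0.219).

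The kinases on a list drawn up for SR proteins went in both directions. Of the 10 listed, 2 were called higher and 0 lower at the first step. At the second, 2 were higher and 2 lower, so that each count of 2 is 20%. Of all genes tested, 9.49% were higher and 17.1% lower at the first step, and 19.1% higher and 17.7% lower at the second. The kinases' shares at the second step thus lay near those of all genes. Srpk2 was at 82.1 and 82.2 CPM in GMP, 113 and 115 in EoP and 408 and 610 in Eos (log2 fold change Eos against EoP 2.16, SE 0.249, edgeR adjusted p = 0.000244). Its relative Srpk1 was at 157 and 157 CPM in GMP, 143 and 152 in EoP and 81.7 and 64.4 in Eos (log2 fold change -1.01, SE 0.214, edgeR adjusted p = 0.00526). The 2 SR protein kinases were thus called in opposite directions, each with separate groups. Clk1 was at 314 and 230 CPM in EoP and at 525 and 796 in Eos (log2 fold change 1.28, SE 0.287, edgeR adjusted p = 0.00696), and Clk3 rose at the first step (log2 fold change 1.12, edgeR adjusted p = 0.0118). Hipk2, a nuclear kinase on the list, was at 92.3 and 97.4 CPM in GMP, 253 and 299 in EoP and 106 and 102 in Eos, and was called at both steps (log2 fold changes 1.54 and -1.41, edgeR adjusted p = 0.00126 and 0.000947). It is 1 of the 2 rises at the first step and 1 of the 2 falls at the second. The calls of Srpk1, Srpk2 and Hipk2 held without any 1 library. That of Clk1 was lost without EoP replicate 2 (edgeR adjusted p = 0.0732), and that of Clk3 without GMP replicate 1 or EoP replicate 1 (up to 0.129).

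Of 58 other splicing regulators, 6 were called higher and 5 lower at the first step, and 6 higher and 11 lower at the second. The shares were 10.3% and 8.62% at the first step, against 9.49% and 17.1% of all genes tested, and 10.3% and 19% at the second, against 19.1% and 17.7%, so the share that fell at the second step lay near that of all genes. Celf2, a regulator abundant in blood cells, was at 350 and 377 CPM in EoP and at 769 and 889 in Eos (log2 fold change 1.19, SE 0.230, edgeR adjusted p = 0.00350). Ptbp1, a repressor that binds pyrimidine tracts, was at 529 and 517 CPM in EoP and at 277 and 151 in Eos (log2 fold change -1.29, SE 0.301, edgeR adjusted p = 0.00852). Fubp1 went from 273 and 318 CPM to 128 and 107 (log2 fold change -1.33, edgeR adjusted p = 0.00154). Raly and Luc7l3 rose at the first step (log2 fold changes 0.94 and 0.89, edgeR adjusted p = 0.0319 and 0.0159). Rbfox2 had 52 and 36 counts in GMP, 0 in both EoP libraries, and 7 and 4 in Eos. Against a floor of 3 counts over the EoP libraries it was at least 39.5-fold higher in GMP and at least 3.99-fold higher in Eos. Nova1 had 11 and 18 counts in GMP and 0 in EoP and Eos, at least 13-fold and 11.9-fold higher in GMP. These floors cover counting error only. The calls of Fubp1 and Ptbp1 held without any 1 library, and that of Celf2 was lost without EoP replicate 1 (edgeR adjusted p = 0.0515). Those of Raly and Luc7l3 were lost without either GMP replicate or EoP replicate 2, and that of Raly also without EoP replicate 1 (up to 0.160). Without GMP replicate 1 or either EoP replicate, the rise of Rbfox2 from EoP to Eos and the fall of Nova1 from GMP to EoP were not called (edgeR adjusted p-values of up to 0.0832 and 0.107), and without GMP replicate 1 neither was the difference of Rbfox2 between Eos and GMP (0.0618).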

How the data were processed

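RNA was measured in 6 libraries and H3K4me3 in 3, grouped by their titles. The authors' RNA tables list, per RefSeq transcript, expected counts in whole numbers and RPKM values, per the file headers. The counting tool and how it treated strand and shared reads were not given in the sources used here. Of tools, STAR 2.4.0c and Bowtie 1.0.0 are named in the submitters' processing notes, with no role, as is build mm10. The authors' peak tables give pileup signal, −log10 p and q, fold enrichment (a ratio) and length per peak, per the file headers.

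Counts were summed per gene symbol over 31213 transcript lines to 23471 genes and tested in R 4.3.3 with edgeR 4.0.16: default expression filter (14324 genes kept), TMM factors, 1 quasi-likelihood fit of the 6 libraries by cell type with 3 residual degrees of freedom, Benjamini-Hochberg adjustment over all genes kept. A call is an adjusted p under 0.05. The standard error is the log2 fold change over the square root of F. The deposited RPKM, summed per gene, ranked members by level. Peak lines naming several genes were split. The fit was tested on simulated data.

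The members and lists were chosen with earlier results of these data known. Members were named by a rule: the highest of each class by mean RPKM, up to 3 called per class, direction and comparison, members called in opposite directions, and those failing the filter or lacking a peak, with the 3 highest and longest peaks. Hnrnpa0, Hnrnph1, Hnrnph3, Hnrnpu, Hnrnpul2, Sf3b2, Sf3b5, Snrpc and Srsf1 were named outside it, after their values were seen. Further list genes were up to 2 per direction and step. Alternatives were other scalings (DESeq2 1.42.0 size factors, upper quartile, library size alone), DESeq2's Wald test, other expression filters, limma 3.58.1 on log2(RPKM + 0.5) or with 0.1 for genes reaching an RPKM of 1, counting by transcript, a replicate block, only the groups compared, a minimum fold of 2 and leaving out each library. Where that left 1 library of a cell type, it was assumed to vary like the others.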

Additional observations from a re-analysis of the deposited data

How the results depend on the processing

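Without any 1 library in turn, the members called higher numbered 0 to 3 for EoP against GMP, 0 to 1 for Eos against EoP and 0 to 2 for Eos against GMP, and those called lower 0 to 5, 6 to 27 and 8 to 31. Scaling by library size alone moved the median log2 fold change of all genes by -0.46, -0.12 and -0.58 in the 3 comparisons, upper quartile factors by -0.18, -0.05 and -0.23, and DESeq2 size factors by -0.02, 0.11 and 0.10, so the changes hold relative to such shifts.

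For EoP against GMP, the 2 members higher became 1 under upper quartile factors, library size alone, a minimum of 50 counts, the replicate block or a minimum fold of 2. The 3 lower became 9 under library size alone and 7 in a fit of only the groups compared, where 25.3% and 21.5% of all genes fell. They became 1 under limma on RPKM with pseudocounts of 0.5 or 0.1, where 3.61% and 3.07% fell. With the transcript with the most counts they became 0, where 11.3% fell. For Eos against EoP, the 0 higher became 2 in DESeq2's Wald test and 1 with a minimum of 50 counts, where 21.5% and 25% of all genes rose. The 25 lower became 16 with only the groups compared, where 16.6% of all genes fell. They became 42 and 40 under limma on RPKM with pseudocounts of 0.5 and 0.1, where 43.3% and 40.9% of all genes fell. With the transcript with the most counts they became 13, where 12% of all genes fell, and with a minimum fold of 2 also 13. For Eos against GMP, the 1 higher became 2 under DESeq2 size factors, DESeq2's Wald test, only the groups compared or the transcript with the most counts, and 0 under library size alone or a minimum fold of 2. The 26 lower became 43 under library size alone, where 47.3% of all genes fell. The cause was not tested. Hnrnpr, Eos against GMP, turned to a log2 fold change of 0.35 with the transcript with the most counts. Over all settings and comparisons, named members stayed on the same side of the threshold in 1751 cases. They lost the call in 170, gained one in 70 and changed sign with a call in 1. Cases without a call in either fit count among the 1751 whatever their sign.

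Differences between replicates 1 and 2 were nearly uncorrelated between cell types (correlations -0.10, 0.02 and -0.08). Such values cannot show whether libraries of the same number share a source. With the replicate block the members higher and lower were 1 and 3, 0 and 25, and 1 and 24. Counts of promoter peaks stayed within 1.5 times under each peak rule tried. With 2 libraries a group, precision is limited by their number.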
